A study of Mus musculus with 6 samples.

Results

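A set of 10 genes was followed in sorted ependymal cells of the adult mouse: Rarres2, Mdk, Ptn, Cntf, Dbi, Mia, Dkk3, Cxcl12 and Tgfb2, which encode secreted factors, and Ackr3, which encodes a receptor that removes the chemokine CXCL12. They are 10 of the 47643 genes listed in the deposited tables and were found there by gene symbol. They were chosen with values from these libraries in view, as factors that ependymal cells could send to the neighbouring stem cell niche, and Ackr3, Cntf and Dkk3 were chosen also because they were lower after Ccn1 deletion. The cells came from the ventricular-subventricular zone (V-SVZ), the region along the lateral ventricle where adult neural stem cells reside. All mice had received tamoxifen 2 days before the sort, and ependymal cells were separated by flow cytometry on GFP, which recombination switches on, with a gate set by hand against wild-type cells. In the mice labelled CKO, recombination also deleted Ccn1, which encodes a secreted matricellular protein, while the mice labelled CTR were controls. There were 3 CKO and 3 CTR samples, 6 in all, and the RNA is labelled cytoplasmic. The sources used here do not give the driver of recombination, the strain or the exact age, nor whether samples came from separate animals, so p-values measure the spread between these samples, which may be technical.

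Ependymal cells are multiciliated cells that line the ventricles and sit between the cerebrospinal fluid and the stem cell niche. Proteins they release can reach the stem cells whose apical processes touch the ventricle surface, as well as astrocytes, neuroblasts and vessels nearby. Some of the factors described here are classical ligands with a signal peptide, such as chemerin (Rarres2), midkine (Mdk), pleiotrophin (Ptn) and TGF-beta 2. CNTF and the acyl-CoA-binding protein DBI lack such a peptide and are known for acting both within and outside the cell.

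The libraries held 13401499 to 15689579 estimated counts each. Ccn1, listed under its older symbol Cyr61, stood at 28.7 ± 10.4 CPM (counts scaled to library size; SD, n = 3) in CKO and 134 ± 20.6 CPM in CTR samples, with every library on its labelled side. All 10 ependymal markers, many of them genes of motile cilia, were detected, and they summed to 15326 to 16168 TPM in CKO and 15233 to 18502 TPM in CTR libraries. TPM is scaled by transcript length and allows comparison between genes, whereas CPM is used below to compare one gene between libraries. The 8 endothelial markers stayed at or below 0.0141 TPM in every library, and 7 of them, among them Cldn5 and Pecam1, were listed at 0 in all 6. Of 9 mural and fibroblast markers only Col1a2 reached a mean of 1 TPM. Most marker lists of other cell types gave more signal, but whether it came from those cells was not tested. The sum of the 8 markers of astrocytes and neural stem cells was 1272 to 1669 TPM in CKO and 1279 to 2507 TPM in CTR libraries, with Aldoc the most abundant. The 7 choroid plexus markers summed to 406 to 986 and 570 to 757 TPM, led by Folr1. Folr1 ran from 297 to 558 TPM and Ttr from 0.251 to 520 TPM, while Kcne2 was listed at 0 in every library. Of the microglial markers, Csf1r reached at most 0.215 TPM, P2ry12 ran from 0 to 13.7 TPM, and Ctss from 0.0731 to 9.84 TPM in CKO and from 15.5 to 30.3 TPM in CTR libraries. The part of microglial RNA in the results was not tested. The 5 neuronal markers, nearly all Ppp1r1b, summed to 291 to 366 and 191 to 428 TPM, and Rbfox3 was listed at 0 in every library. The 6 oligodendrocyte markers, led by Mbp, summed to 32.2 to 59.3 and 29.1 to 114 TPM. Neuroblast markers, led by Sox11, summed to at most 26.2 TPM and oligodendrocyte precursor markers, led by Olig1, to at most 3.15 TPM.

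Over the 6 libraries the 10 genes spanned a range from among the most abundant transcripts of these cells to one that was nearly absent. Together they made up 3.289% to 4.204% of all TPM in a library, and Dbi alone gave 69.5% to 73.5% of that sum. The order by mean TPM was Dbi, Rarres2, Mia, Mdk, Ptn, Cntf, Dkk3, Ackr3, Tgfb2 and Cxcl12. Since levels were part of how the genes were chosen, this order is a description without a test. Ptn and Cntf overlapped in their ranges over the 6 libraries, as did Dkk3 and Ackr3, and Ackr3 and Tgfb2, while the other neighbours in the order were fully separate. Within each library Ptn was above Cntf and Dkk3 above Ackr3, 6 of 6 times. Ackr3 and Tgfb2 differed in order by genotype: Ackr3 was the higher of the pair in 3 of 3 CTR libraries and the lower in 3 of 3 CKO libraries. Ackr3 was chosen also for being lower in the CKO, so this change of order is not separate from the choice.

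**Figure D1:**
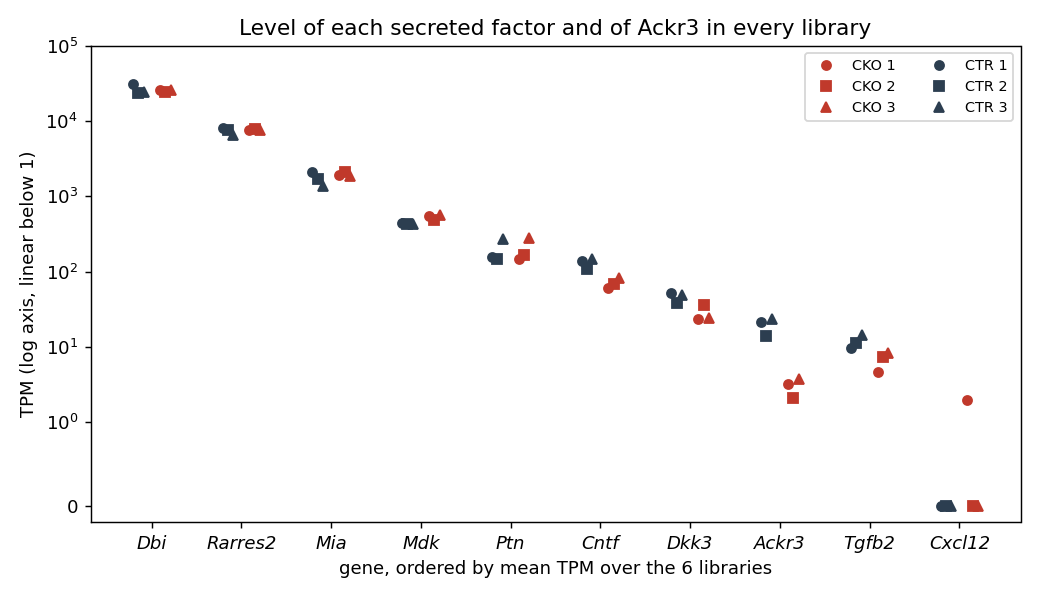
TPM of the 10 genes in each library, on a log axis that is linear below 1, with dark CTR and red CKO points and a symbol for each replicate number. Dbi lies between 23551 and 30888 TPM and Cxcl12 at 0 in all libraries except CKO 1.

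Dbi encodes the acyl-CoA-binding protein, also called diazepam binding inhibitor, whose cleaved peptides modulate GABA-A receptors. It ranked 2 among all genes by mean TPM. The libraries CKO 1 to CKO 3 held 26114, 24408 and 26058 TPM, and CTR 1 to CTR 3 held 30888, 23551 and 24082 TPM. The groups overlapped, with CTR 1 the highest library and CTR 2 the lowest. In CPM Dbi stood at 6846 ± 531 in CKO and 7133 ± 1743 in CTR samples (SD, n = 3 each). The log2 difference, CKO minus CTR, was -0.059 ± 0.17 (SE), with a 95% interval from -0.45 to 0.33 (adjusted p = 0.99999, edgeR quasi-likelihood test over all genes).

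Rarres2 encodes chemerin, a secreted chemoattractant and adipokine. It ranked 10 by mean TPM, with 7631, 7828 and 7712 TPM in CKO libraries and 8197, 7558 and 6511 TPM in CTR libraries. The CKO values lay inside the CTR range. The log2 difference was 0.039 ± 0.14 (SE), with a 95% interval from -0.29 to 0.36 (edgeR adjusted p = 0.99999). Rarres2 on chromosome 6 (48569696 to 48572789, minus strand) shares 892 exon bases with Lrrc61 on the opposite strand, which stood at no more than 15.4 TPM. Of the chemerin receptor genes, Cmklr1 had at most 0.0605 TPM in a library, and Cmklr2 (listed as Gpr1) and Ccrl2 were listed at 0 in all 6. The ligand's RNA was abundant in these cells, and that of its 3 receptors was at or near 0.

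Mia encodes a small secreted protein with an SH3-like fold, first known from melanoma and cartilage. It ranked 45, with 1938, 2125 and 1861 TPM in CKO libraries and 2126, 1725 and 1360 TPM in CTR libraries. Again the CKO libraries fell inside the wider CTR range. The log2 difference was 0.16 ± 0.22 (SE), with a 95% interval from -0.36 to 0.67 (edgeR adjusted p = 0.99999). Of its relatives, Mia3 (TANGO1), which loads collagen into secretory vesicles, stood at 6.61 ± 1.86 TPM in CKO and 5.45 ± 4.09 TPM in CTR samples, and Otor and the entry named Mia2 were listed at 0. The tables hold a separate entry, Ctage5, that later annotations merge with Mia2 and that was not used here, so the 0 covers only part of that gene. Mia shares 410 exon bases with Gm21983 on the same strand, which was listed at 0 in every library.

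Mdk and Ptn encode midkine and pleiotrophin, the 2 members of a family of heparin-binding growth factors that act through the receptor phosphatase PTPRZ1, syndecans and ALK. Mdk held 543, 478 and 564 TPM in CKO libraries and 446, 431 and 432 TPM in CTR libraries. On this scale all 3 CKO libraries lay above all 3 CTR libraries, which was the case for 5.01% of the 11574 genes tested. In CPM the groups overlapped, since CTR 1 at 225 CPM exceeded CKO 2 at 208 CPM. The log2 difference of Mdk in CPM was 0.26 ± 0.19 (SE), with a 95% interval from -0.19 to 0.71 (edgeR adjusted p = 0.99999).

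Ptn held 147, 164 and 280 TPM in CKO libraries and 157, 147 and 275 TPM in CTR libraries. In each genotype 1 library, CKO 3 and CTR 3, was well above the other 2, and the groups overlapped fully. The log2 difference was 0.048 ± 0.34 (SE), with a 95% interval from -0.73 to 0.83 (edgeR adjusted p = 0.99999), and it was -0.32 without CKO 3 and 0.35 without CTR 3. Mdk exceeded Ptn in every library, by 3.70, 2.91 and 2.01 times in CKO 1 to CKO 3 and by 2.85, 2.93 and 1.57 times in CTR 1 to CTR 3. The ratio was lowest in the libraries with high Ptn. The summed astrocyte markers were highest in the same libraries of each genotype, at 1669 TPM in CKO 3 and 2507 TPM in CTR 3. Single markers differed: Aldoc, Gfap and Aldh1l1 were highest in CKO 3 and CTR 3, Slc1a2, Slc1a3 and Gjb6 in CKO 2 and CTR 2, Aqp4 in CKO 3 and CTR 2, and Agt in CKO 3 but listed at 0 in all CTR libraries. The part of astrocyte RNA in the Ptn level was not tested.

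Among 11 receptor genes for midkine and pleiotrophin, 5 reached a tested level and none was called. There were 0 by edgeR after adjustment and 0 before it at a threshold of 0.05, and 0 by DESeq2. Over all genes tested these shares were 0%, 2.75% and 1.69%. Since edgeR called no gene at all after adjustment, its 0 in this list or a later one says nothing about that list. The syndecan gene Sdc4 was the most abundant, at 401 ± 68.0 TPM in CKO and 406 ± 107 TPM in CTR samples, followed by Sdc2 at 83.2 ± 21.5 and 95.8 ± 33.7 TPM. Ptprz1 stood at 24.2 ± 7.98 and 17.0 ± 3.43 TPM (log2 difference 0.46 ± 0.32 SE). For each of these 3 receptor genes the CKO and CTR libraries overlapped.

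The remaining members were lower in the CKO libraries or nearly absent. Of the 9 genes that reached a tested level, 4 had all 3 CKO libraries below all 3 CTR libraries in CPM: Ackr3, Cntf, Dkk3 and Tgfb2. Over all genes tested this held for 4.62%. Ackr3, Cntf and Dkk3 were chosen for being lower, so their count says nothing beyond the choice, and no test is given for them. Tgfb2 was not chosen that way. Of the 6 tested genes that were not chosen for a difference, edgeR called 0 after adjustment, against 0% of all 11574 genes, and 0 had an unadjusted p under 0.05, against 2.75% of all genes. DESeq2 called 0 of them as well, against 1.69% of the 11823 genes to which it gave an adjusted p. The libraries are of bulk RNA, in which fewer cells of a type and less RNA per cell cannot be told apart.

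**Figure D2:**
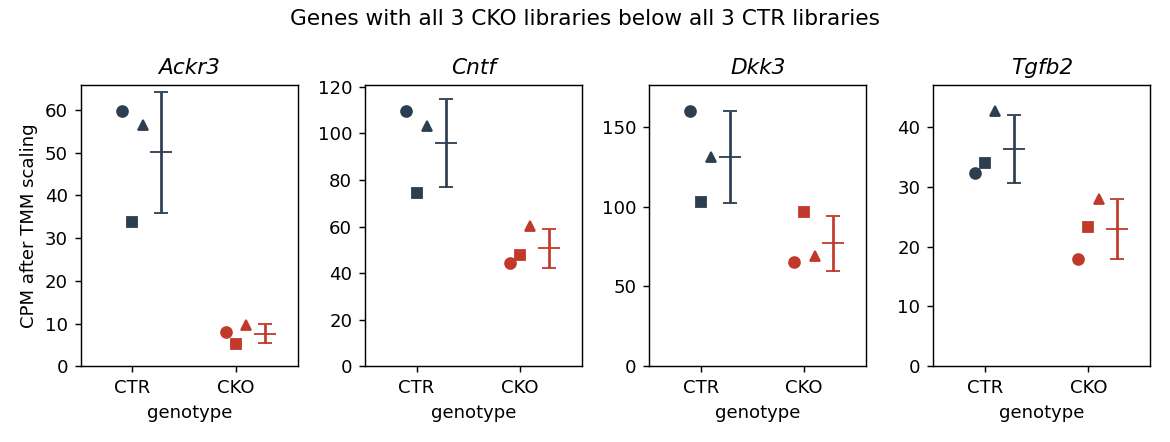
CPM after TMM scaling of Ackr3, Cntf, Dkk3 and Tgfb2 by genotype, with 1 point per library (circle, square and triangle for replicates 1, 2 and 3) and the mean ± SD of 3 libraries beside them. All 3 red CKO points lie below all 3 dark CTR points in each panel, and for Dkk3 CKO 2 at 96.7 CPM is close to CTR 2 at 103 CPM.

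Ackr3, formerly Cxcr7, encodes a scavenger receptor that internalises CXCL12 for breakdown in lysosomes without signalling through G proteins, and so shapes gradients of this chemokine. It held 112, 69 and 131 estimated counts in CKO libraries and 905, 464 and 884 in CTR libraries. In CPM these were 8.12, 5.13 and 9.62 against 59.9, 33.9 and 56.5. Every CKO library was far below every CTR library. The mean was 6.57-fold lower in the CKO, at 7.62 ± 2.29 against 50.1 ± 14.1 CPM (SD, n = 3 each), so that 15.2% of the control level was left. The log2 difference was -2.71 ± 0.66 (SE) and ranged from -2.93 to -2.49 when each library was left out in turn. In TPM the means were 2.99 ± 0.822 and 19.6 ± 4.91. Endothelial cells, where Ackr3 is known to be expressed, left at most 0.0141 TPM of any marker in these libraries. Which cells the Ackr3 RNA came from was not tested.

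Over the 6 libraries, Ackr3 had a range of 3.31 on the log2(CPM + 1) scale, against a median of 1.51 over the 6167 genes that averaged 20 CPM or more. Among those genes, the profile closest to that of Ackr3 over the 6 libraries was that of Ccn1 itself, with a root mean square difference of 0.40 after centring on the log2(CPM + 1) scale. Next were Cyp39a1, an oxysterol hydroxylase gene, at 0.46, and 2610316D01Rik, an uncharacterised gene, at 0.51. Cyp39a1 stood at 43.1 ± 19.1 CPM in CKO and 143 ± 52.1 CPM in CTR samples. Because Ackr3 was chosen for its difference and Ccn1 is the deleted gene, this likeness is a description of these libraries.

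Cxcl12, the gene of the chemokine that ACKR3 and CXCR4 bind, was nearly absent. It had 40 estimated counts in CKO 1 and 0 in the other 5 libraries, where 0 counts allow a level of up to 0.191 to 0.224 CPM (3 counts, counting error only). In TPM this was 1.98 in CKO 1. Cxcl12 did not reach a tested level, and the label of a secreted ependymal factor therefore rests on 1 library for this gene. The receptor gene Cxcr4 was low and uneven, with 2.38, 4.33 and 3.35 TPM in CKO and 3.53, 11.7 and 12.5 TPM in CTR libraries, where CTR 1 lay within the CKO range. Of the 13 genes listed for this axis and related chemokines, Cxcr4 among them, 5 were tested, with 1 higher and 4 lower in CKO. Over all genes tested, 5823 were higher and 5751 lower. None of the 5 was called (0 by edgeR or DESeq2, against 0% and 1.69% of the genes each tested). An unadjusted p under 0.05 was found for 0, against 2.75% of all genes. Their median log2 difference was -1.15, against 0.0044 over all genes tested. This median is the value of Cx3cl1, which was listed at 0 in CKO 1 and had a log2 difference of -0.57 without that library. Each of the 5 was low: the most abundant, Cx3cl1, which encodes the membrane-bound chemokine fractalkine, stood at 4.84 ± 4.19 TPM in CKO and 10.5 ± 2.97 TPM in CTR samples, and Cxcl14 at 3.52 ± 4.59 and 7.33 ± 4.75 TPM. Cxcl14 also rested on single libraries: its log2 difference of -1.03 became -2.93 without CKO 1, -0.44 without CKO 2 and -0.43 without CTR 3.

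Cntf encodes ciliary neurotrophic factor, a cytokine of the interleukin-6 family that signals through CNTFR, LIFR and gp130 to JAK kinases and STAT3. It held 60.5, 68.9 and 81.1 TPM in CKO libraries and 139, 108 and 148 TPM in CTR libraries. The highest CKO library was below the lowest CTR library. In CPM the means were 50.8 ± 8.37 and 95.8 ± 18.9 (SD, n = 3 each), so the CKO mean was 53.0% of the CTR mean, with a log2 difference of -0.92 ± 0.33 (SE). Leaving out each library in turn gave -1.07 to -0.80. Cntf (chromosome 19, 12763660 to 12765632, minus strand) shares 847 exon bases with Zfp91 on the same strand, so reads can be divided between them by estimate. Zfp91 stood at 0 to 4.33 TPM, far below Cntf in every library. The most similar profiles were those of Smim1 (root mean square difference 0.15), Scnn1a, an epithelial sodium channel subunit gene (0.18), and Use1, a SNARE gene (0.19).

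Of 14 relatives and signalling partners of CNTF, 9 were tested, with 3 higher and 6 lower in the CKO and a median log2 difference of -0.49. None was called at an adjusted p of 0.05 (0 by edgeR and 0 by DESeq2, against 0% and 1.69% of the genes each tested). Jak2, a kinase downstream of these receptors, was the 1 gene at an unadjusted p under 0.05 (2.75% of all genes tested). It held 4.26, 3.23 and 4.48 TPM in CKO libraries and 6.58, 10.4 and 19.98 TPM in CTR libraries, a log2 difference of -1.60 ± 0.60 (SE, edgeR adjusted p = 0.99999). Jak1 was also below the CTR range in all CKO libraries, at 10.8 ± 1.19 against 15.8 ± 3.76 TPM. Il6st, the gp130 gene, stood at 14.997 ± 3.47 and 21.7 ± 10.4 TPM and overlapped between genotypes. The cardiotrophin gene Ctf1 was the most abundant of the list, at 38.4 ± 11.5 and 45.9 ± 36.2 TPM. Cntfr varied widely, from 0.234 to 22.9 TPM in CKO and from 0 to 21.5 TPM in CTR libraries. Astrocytes are a known source of Cntf. Their summed markers, given above, overlapped between genotypes, with the highest library in the CTR group, and their part in the Cntf level was not tested.

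Dkk3 encodes a secreted glycoprotein of the Dickkopf family, whose other members block the WNT co-receptors LRP5 and LRP6. It held 23.2, 35.7 and 24.1 TPM in CKO libraries and 52.4, 38.6 and 48.8 TPM in CTR libraries. CKO 2 came close to CTR 2, and the other libraries lay further apart. In CPM the means were 77.0 ± 17.1 and 131 ± 28.7 (SD, n = 3 each), so the CKO mean was 58.7% of the CTR mean, with a log2 difference of -0.77 ± 0.30 (SE) and a range from -0.97 without CKO 2 to -0.60 without CTR 1. Its closest profiles were those of Ddit4l (root mean square difference 0.15), Mrpl45, a mitochondrial ribosomal protein gene (0.16), and Gnb2l1, the older symbol of Rack1 (0.16). Cntf and Dkk3 had ranges of 1.30 and 1.28 over the 6 libraries, below the median of 1.51 for genes that averaged 20 CPM or more.

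Of 26 Dickkopf genes, secreted WNT modulators and WNT receptors, 9 were tested, with 3 higher and 6 lower in the CKO (median log2 difference -0.53). None was called (0 by edgeR or DESeq2, against 0% and 1.69% of the genes each tested). An unadjusted p under 0.05 was found for 0, against 2.75% of all genes. The most abundant were Ctnnb1, the beta-catenin gene, at 68.8 ± 36.2 TPM in CKO and 56.3 ± 10.8 TPM in CTR samples, and Sostdc1, a secreted BMP and WNT antagonist gene, at 77.2 ± 19.5 and 47.5 ± 11.98 TPM. Sostdc1 is also on the choroid plexus list. Sfrp5, a secreted Frizzled-related protein gene, stood at 30.5 ± 13.3 and 30.0 ± 11.5 TPM. No other Dickkopf gene reached a tested level.

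Tgfb2 encodes TGF-beta 2, a ligand secreted in latent form that is known to slow the division of neural progenitors. It held 4.67, 7.36 and 8.26 TPM in CKO libraries and 9.66, 11.2 and 14.1 TPM in CTR libraries. The groups did not overlap, in CPM or in TPM, where 4.5% of all genes tested had the 3 CKO libraries below, but the gap between CKO 3, at 27.9 CPM, and CTR 1, at 32.3 CPM, was smaller than the SD within either group. In CPM the means were 23.0 ± 5.01 and 36.3 ± 5.65 (SD, n = 3 each), 63.4% of the control level. The log2 difference was -0.66 ± 0.57 (SE), with a 95% interval from -1.97 to 0.66 (adjusted p = 0.99999 by the edgeR fit over all genes, and 0.281 before adjustment). A difference in either direction is thus within the interval. Tgfb2 shares 124 exon bases with the antisense gene Gm29491, which stood at 0 to 8.58 TPM, so reads from these bases could not be told apart without strand.

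Of 23 other TGF-beta ligand, latency and signalling genes, 16 were tested, with 8 higher and 8 lower in the CKO and a median log2 difference of 0.017. None was called at an adjusted p of 0.05 (0 by edgeR and 0 by DESeq2, against 0% and 1.69% of the genes each tested). The receptor gene Tgfbr2 was the 1 gene at an unadjusted p under 0.05 (2.75% of all genes tested) and was opposite in direction to its ligand. It held 9.68, 12.5 and 11.1 TPM in CKO libraries and 2.03, 0.152 and 2.00 TPM in CTR libraries, a log2 difference of 2.95 ± 1.03 (SE, edgeR adjusted p = 0.99999). Smad2, which carries the signal to the nucleus, stood at 28.7 ± 6.27 TPM in CKO and 36.4 ± 0.445 TPM in CTR samples, with all CKO libraries below all CTR libraries. Itgb8, an integrin subunit gene that takes part in freeing latent TGF-beta, stood at 9.10 ± 1.17 and 11.4 ± 2.95 TPM.

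**Figure D3:**
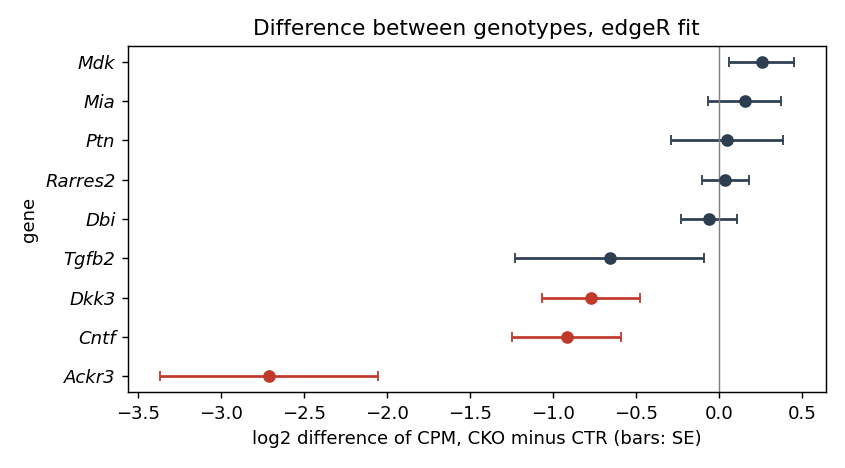
Log2 difference in CPM between CKO and CTR samples for the 9 genes that reached a tested level, with the standard error of the edgeR fit. Red points mark Ackr3, Cntf and Dkk3, which were chosen for being lower and lie at -2.71, -0.92 and -0.77, while the 6 others lie between -0.66 and 0.26.

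The DNA upstream of the genes that stood apart is shown so that their promoters can be compared. The RefSeq promoter table (GRCm38.p6) held 7 of the 10 genes, and Rarres2, Mdk and Dkk3 were not among them. The 250 bases before the start site are given 5′ to 3′ on the gene's strand for Ackr3, Cntf and Tgfb2, which had separate groups, and for Cxcl12, which was nearly absent. Capitals mark matches on either strand to the letters of 6 motifs. The general promoter motifs were the GC box, searched as GGGCGG, and the TATA box, searched as TATAAA. The AP-1 site was searched as TGACTCA and the TEAD site, which YAP reaches through TEAD proteins, as GGAATG. The RFX site core was searched as GTTGCC and the forkhead site as TGTTTA, since RFX factors and FOXJ1 drive genes of motile cilia.
Ackr3, chr1:90203730-90203979, plus strand: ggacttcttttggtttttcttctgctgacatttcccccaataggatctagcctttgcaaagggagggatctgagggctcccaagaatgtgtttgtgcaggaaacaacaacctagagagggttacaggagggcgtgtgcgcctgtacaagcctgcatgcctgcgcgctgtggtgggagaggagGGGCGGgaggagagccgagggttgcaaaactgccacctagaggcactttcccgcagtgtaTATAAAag
Cntf, chr19:12765633-12765882, minus strand: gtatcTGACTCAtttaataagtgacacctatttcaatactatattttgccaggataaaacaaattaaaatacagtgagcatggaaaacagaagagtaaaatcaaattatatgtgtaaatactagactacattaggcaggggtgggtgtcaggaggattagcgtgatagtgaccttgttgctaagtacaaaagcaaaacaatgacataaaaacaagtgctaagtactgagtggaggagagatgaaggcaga
Tgfb2, chr1:186705990-186706239, minus strand: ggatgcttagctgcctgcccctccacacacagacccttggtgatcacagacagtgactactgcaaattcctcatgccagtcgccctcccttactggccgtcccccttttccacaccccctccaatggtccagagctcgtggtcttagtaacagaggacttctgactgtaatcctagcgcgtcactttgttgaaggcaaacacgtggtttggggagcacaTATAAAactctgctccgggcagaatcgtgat
Cxcl12, chr6:117168285-117168534, plus strand: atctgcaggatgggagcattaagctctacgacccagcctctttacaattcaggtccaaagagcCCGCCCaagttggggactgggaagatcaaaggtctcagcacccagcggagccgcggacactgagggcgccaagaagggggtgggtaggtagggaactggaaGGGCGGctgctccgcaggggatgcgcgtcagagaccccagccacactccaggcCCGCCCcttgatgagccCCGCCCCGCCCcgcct
The windows of Ackr3 and Tgfb2 each held 1 TATA box, beginning at positions -8 and -31 from the start site and present in 12.4% of all 32851 promoter windows of this length, and that of Ackr3 also held 1 GC box, present in 32.7%. The Cntf window, with 35.6% G and C, held 1 AP-1 match, present in 4.5%. The Cxcl12 window, with 64.4% G and C, held 5 GC boxes, of which the last pair overlap, and no TATA box. No TEAD, RFX or forkhead letters were found in these windows, and they occur in 12.6%, 10.4% and 12% of all windows. A match is a match of letters, and no binding was measured here.

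Dbi and the other secreted factors also had relatives and targets that were measured in the same cells. Of 16 relatives and targets of DBI, 12 were tested, with 4 higher and 8 lower in the CKO (median log2 difference -0.21). None was called (0 by edgeR or DESeq2, against 0% and 1.69% of the genes each tested). An unadjusted p under 0.05 was found for 0, against 2.75% of all genes. Tspo, which encodes the mitochondrial translocator protein that binds DBI, stood at 279 ± 15.5 TPM in CKO and 285 ± 48.0 TPM in CTR samples. The related binding protein genes Acbd7 and Acbd6 stood at 48.7 ± 14.3 against 81.7 ± 44.2 TPM and at 18.0 ± 9.01 against 29.0 ± 9.80 TPM, with overlapping groups.

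A list of 40 further secreted factors of the niche held 14 tested genes, with 5 higher and 9 lower in the CKO (median log2 difference -0.18). None was called (0 by edgeR or DESeq2, against 0% and 1.69% of the genes each tested). An unadjusted p under 0.05 was found for 0, against 2.75% of all genes. Cst3, which encodes the protease inhibitor cystatin C, was the most abundant at 3775 ± 106 TPM in CKO and 4175 ± 382 TPM in CTR samples, a level between those of Rarres2 and Mia. Gas6, a ligand of TAM receptors, stood at 291 ± 56.5 and 345 ± 92.4 TPM, and Igfbp2, an IGF-binding protein gene, at 64.8 ± 21.6 and 75.7 ± 39.6 TPM. In all, 71 of the 149 genes in these partner lists were tested, 27 higher and 44 lower in the CKO. Over all genes tested, 5823 were higher and 5751 lower, and the lean of the lists was not tested. Of the 71, 4 were entirely below the CTR libraries in CPM (Jak1, Jak2, Cx3cl1 and Smad2), which was the case for 4.62% of all genes tested. For Cx3cl1 the gap was narrow, with CKO 3 at 19.98 CPM and CTR 3 at 20.25 CPM. Gabrg3, Arrb2 and Tgfbr2 were among those entirely above, as were 4.99% of all genes tested. edgeR and DESeq2 called 0 of the 71 at an adjusted p of 0.05, against 0% and 1.69% of the genes each tested. Of the 71, 2, Jak2 and Tgfbr2, had an unadjusted p under 0.05, a share near the 2.75% of all genes tested.

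**Figure D4:**
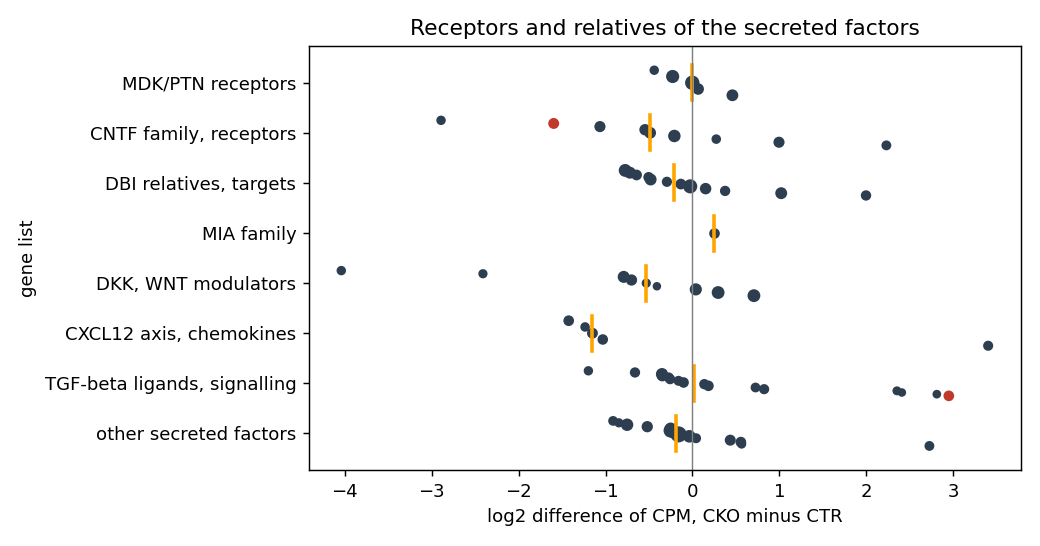
Log2 difference in CPM, CKO minus CTR, of each tested gene in the partner lists, with 1 point per gene sized by its mean TPM, orange bars at the list medians, and red points for Jak2 and Tgfbr2, the genes at an unadjusted p under 0.05. Points lie on both sides of 0 in every list except the MIA family, where 1 gene was tested.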

How the data were processed

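RNA-seq of 6 samples was analysed. Reads were processed with CASAVA 1.8, cutadapt 1.11 and kallisto 0.42.5, per the submitters' processing notes. The sources used here do not state the build, annotation, library kit or how transcripts were summed. The deposited tables hold estimated counts, rounded here to whole numbers, and TPM values scaled by the authors, per the file headers. Kallisto divides ambiguous reads by estimate. Coordinates are from GENCODE M21 (GRCm38), matched by gene ID (99.1% matched).

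Genes kept by filterByExpr (11574) were TMM-scaled and tested with edgeR 4.0.16 (quasi-likelihood, robust, genotype only, R 4.3.3), with Benjamini-Hochberg adjustment over all genes at 0.05. Alternatives used DESeq2 1.42.0, limma 3.58.1, other scalings and filters, pseudocounts of 1 and 0.1 on TPM, a replicate block, and fits without 1 library. The edgeR, DESeq2 and limma-voom fits were also run on simulated data, and the outcome is not reported here. Named partner genes are the 3 most abundant per list and those at an unadjusted p under 0.05. A few others (Cntfr, Gabrg3, Arrb2, Cldn5, Pecam1, Csf1r, P2ry12, Ctss) were named after their values were seen. Some markers and partner genes are not reported here. The members and lists were chosen with earlier results of these data known.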

Additional observations from a re-analysis of the deposited data

How the results depend on the processing

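The log2 difference of Ccn1 ran from -2.27 to -2.21 over 9 alternatives and from -2.50 to -1.97 in the 6 fits that left out 1 library, each with p under 0.05 before adjustment. In the main edgeR fit the adjusted p of Ccn1 was 0.99999. For the count of genes called, DESeq2 gave 200 (111 higher and 89 lower in the CKO), the other 8 alternatives and the 6 fits without 1 library gave 0, and the cause was not tested. All 15 settings called 0 of the 6 members not chosen for a difference and 0 of the partner genes. For the levels of the 10 members, a mean over the CTR libraries, a median and means without 1 library were also taken. Each lies within 1 SD of the mean over the 6 libraries by construction, so they are given as values only. Over the CTR libraries alone, Ackr3 stood at 19.6 TPM against 11.3 over all 6, and Cntf at 132 against 101. Rarres2 moved less, at 7422 against 7573 TPM.

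Leaving out 1 library turned the sign of Rarres2 (-0.069 to 0.20), Ptn (-0.32 to 0.35), Dbi (-0.17 to 0.16), Mia (-0.017 to 0.42), Sdc2 (-0.47 to 0.16), Sdc4 (-0.15 to 0.13), Ctf1 (-0.599 to 0.53), Acbd6 (-1.1 to 0.17), Tspo (-0.095 to 0.049), Mia3 (-0.26 to 0.898), Sfrp5 (-0.36 to 0.35), Ctnnb1 (-0.19 to 0.601) and Igfbp2 (-0.55 to 0.104). Sdc4, at -0.0024 in the main fit, was also above 0 with total counts only (0.0030), a mean of at least 10 CPM (0.0011), limma-voom (0.0046), log2(TPM + 1) (0.0051), log2(TPM + 0.1) (0.0052) and the replicate block (0.0049). Sfrp5 fell below 0 on log2(TPM + 0.1) (-0.00089) and with the block (-0.0067), and Ctf1 rose above 0 with the block (0.046). For these turns of sign the cause was not tested.

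Same-numbered samples did not deviate together by the set limit: the correlations of their deviations from the group means were 0.0080, 0.031 and 0.015 for replicates 1 to 3, across 11574 genes. Each sample did correlate best with its own number, a hint from the data only. The fit with the replicate block called 0 genes. In it 232 had an unadjusted p under 0.05 (318 without the block), and Ccn1 stood at -2.27. Depth limits Cxcl12, with 40 counts in all.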
